A study of Homo sapiens with 10 samples.

Results

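The genes described here encode CREBBP, EP300 and the other lysine acetyltransferases KAT2A, KAT2B, KAT5, KAT6A, KAT6B, KAT7 and KAT8. They were taken by symbol from a table of 23284 genes, where all 9 were present, and all 9 passed the filter on low values. Cultures of K562, a long-established cell line from a human myelogenous leukemia, were kept for 48 h in vehicle (DMSO), in CBP30 at 2 or 5 µM, or in I-CBP112 at 2 or 5 µM, and polyadenylated RNA was sequenced. Both compounds occupy the bromodomain that CREBBP and EP300 have in common, so the comparison asks whether the RNA of the targets and of related enzymes changes when that pocket is filled. Each of the 5 conditions had 2 biological replicates (10 samples). In the fit of all 10 samples, a p-value rests only on the spread between replicates. That spread was estimated over all 5 conditions together and moderated across genes, so it includes conditions outside the comparison.

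Lysine acetyltransferases move an acetyl group from acetyl-CoA to lysines of histones and other proteins, and acetylated histones are a mark of active enhancers and promoters. CREBBP and EP300 are large paralogous coactivators that bind many transcription factors and carry a bromodomain, which reads acetylated lysine, beside the catalytic domain. KAT2A (GCN5) and KAT2B (PCAF) are paralogs that also carry a bromodomain and act as the catalytic subunits of the SAGA and ATAC complexes. KAT5, KAT6A, KAT6B, KAT7 and KAT8 form the MYST family and work in the NuA4/TIP60, MOZ/MORF, HBO1, MSL and NSL complexes.

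The upstream windows of 4 of these genes are shown because they are the paralog pairs around which the results turn, the targets of the compounds (CREBBP, EP300) and the pair that moved in opposite directions (KAT2A, KAT2B). Each is the 250 bases before the RefSeq transcript start on assembly GRCh38.p14, read 5′ to 3′ on the strand of the gene, with TGACG, the core of the CREB binding site, on either strand in capitals. RefSeq lists 2 starts for CREBBP, of which the upstream one is shown. The window of the other (chr16:3880121-3880370) has no TGACG, 4 GC boxes (GGGCGG) and 84% G and C.
CREBBP, chr16:3880714-3880963, minus strand: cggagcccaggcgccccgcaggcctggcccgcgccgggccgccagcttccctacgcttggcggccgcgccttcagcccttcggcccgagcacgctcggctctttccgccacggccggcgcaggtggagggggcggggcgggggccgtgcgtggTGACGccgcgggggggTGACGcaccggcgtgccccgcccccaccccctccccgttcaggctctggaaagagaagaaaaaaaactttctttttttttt
EP300, chr22:41092342-41092591, plus strand: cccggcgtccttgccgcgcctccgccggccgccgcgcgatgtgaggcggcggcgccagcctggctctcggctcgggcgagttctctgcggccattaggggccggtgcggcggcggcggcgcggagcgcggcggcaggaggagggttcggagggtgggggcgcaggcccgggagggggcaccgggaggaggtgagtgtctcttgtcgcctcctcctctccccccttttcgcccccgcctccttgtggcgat
KAT2A, chr17:42121368-42121617, minus strand: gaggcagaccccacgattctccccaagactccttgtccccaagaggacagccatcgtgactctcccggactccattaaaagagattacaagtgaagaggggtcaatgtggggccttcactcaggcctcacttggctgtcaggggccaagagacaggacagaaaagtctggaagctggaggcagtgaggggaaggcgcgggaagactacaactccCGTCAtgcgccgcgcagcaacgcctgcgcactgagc
KAT2B, chr3:20040196-20040445, plus strand: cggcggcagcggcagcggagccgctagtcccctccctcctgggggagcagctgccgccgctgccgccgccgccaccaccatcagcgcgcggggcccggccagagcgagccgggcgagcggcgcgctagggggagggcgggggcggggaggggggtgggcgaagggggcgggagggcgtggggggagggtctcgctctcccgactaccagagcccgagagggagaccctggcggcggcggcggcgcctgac
The TGACG core occurs 2 times in the CREBBP window, 1 time in the KAT2A window and in neither of the EP300 and KAT2B windows. It was present in 21.2% of the 35116 promoter windows of the same length. GGGCGG, the GC box, occurs 3 times each in the CREBBP and KAT2B windows and in neither EP300 nor KAT2A, against 42.6% of all windows. The G and C content was 72.4% for CREBBP, 76.8% for EP300, 80.8% for KAT2B and 58.8% for KAT2A, beside a median of 58% over all windows. The full CREB site TGACGTCA, present in 1.65% of all windows, was not among the letters of these 4 windows on either strand. The same held for the E-box motif CACGTG, present in 6.34% of all windows. The GATA motif searched, AGATAA, present in 9.17%, was not found there either. Among the other members the E-box was found in the KAT5 window only, 1 time, where it overlaps the TGACG core. The RefSeq table held windows of 7 of the 9 genes, not of KAT6A or KAT8.

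On GRCh37, the assembly on which the reads were aligned, CREBBP lies on chr16:3775055-3930714 (minus strand) and EP300 on chr22:41488596-41576081 (plus strand). KAT2A is on chr17:40265129-40273385 (minus strand) and KAT2B on chr3:20081938-20195896 (plus strand). Of the MYST genes, KAT5 is on chr11:65479467-65487075, KAT6B on chr10:76584685-76792382, KAT7 on chr17:47865986-47912388 and KAT8 on chr16:31125810-31142714, all on the plus strand, and KAT6A is on chr8:41786997-41909512 on the minus strand. Their GENCODE canonical transcripts differ widely in length, from 1495 bases for KAT8 to 10790 bases for CREBBP, with 2080 for KAT5, 3115 for KAT2A, 4410 for KAT2B, 8314 for KAT6B, 8779 for EP300, 9153 for KAT6A and 9514 for KAT7. The KAT5 transcript overlaps the antisense gene RNASEH2C over 1139 bases (54.8% of its length), so reads of the 2 genes could be told apart only if the counting used strand, which is not given in the sources used here. KAT2A overlaps an unnamed transcript on its own strand over 405 bases, and the overlaps of the other genes were at most 5.09% of the transcript.

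Values are in FPKM, fragments per kilobase of transcript scaled to the mapped total of each sample. They hold no read counts, so sequencing depth is unknown and no counting error can be given. The sums of all FPKM ranged from 547504 to 689095 per sample, both extremes in CBP30 samples, and the relative depth read from 605 rarely detected genes differed by at most 1.17 times. All 8 erythroid markers of K562 were detected in every sample, with KLF1 lowest at 8.40 FPKM. With 5 µM CBP30, 7 of the 8 were called lower and 1 higher, beside 25.4% lower and 21.2% higher of all tested genes. Their summed level was 1309 to 1316 FPKM in DMSO and 543 to 562.2 with 5 µM CBP30, 586 to 733 with 2 µM CBP30, 843 to 900 under 5 µM I-CBP112 and 859 to 935 with 2 µM I-CBP112. Of 10 markers of other cell types, MS4A1 was at 0 throughout and CD14 and PECAM1 did not exceed 0.183 and 0.187 FPKM, while VIM, EPCAM and PTPRC were expressed in every sample. Of the 6 that passed the filter, 1 was called lower (EPCAM) and 2 higher (CD3E and COL1A1) with 5 µM CBP30, beside the same shares of all genes. The summed level of these 10 markers was 1085 to 1113 in DMSO, 1028 to 1043 with 5 µM CBP30, 944 to 1163 with 2 µM CBP30, 971 to 999 under 5 µM I-CBP112 and 976 to 994 with 2 µM I-CBP112. The part of either marker list in the results below was not tested. In bulk RNA, fewer cells of a kind and less RNA per cell cannot be told apart.

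One library stood apart for long transcripts. In replicate 1 of 2 µM CBP30, the median difference from the DMSO mean on the log2(FPKM + 1) scale fell from 0.30 in the shortest of 5 equal length classes (up to 1569 bases) to -0.30 in the longest (5462 bases and more), while in replicate 2 of that condition the 5 medians lay between -0.02 and 0.00. CREBBP, EP300, KAT6A, KAT6B and KAT7 belong to the longest class and KAT8 to the shortest. In both samples of 5 µM CBP30 the trend ran the other way and was smaller, with a median of 0.12 in the longest and -0.12 in the shortest class. All samples shared 1 estimate of the spread, so results are also given without replicate 1 of 2 µM CBP30 and with the length trend removed. Differences below are on the log2(FPKM + 1) scale, on which a low gene shows less than its full change, and were called at a limma adjusted p (Benjamini-Hochberg over all 12788 genes tested) under 0.05.

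In DMSO, FPKM being a level per transcript length, the most abundant transcripts were KAT8 (30.0 ± 0.0919, SD, n = 2), KAT2A (29.2 ± 1.21) and KAT7 (28.3 ± 0.251), followed by KAT5 (17.5 ± 0.0122) and KAT6A (12.2 ± 0.112). KAT2B (7.92 ± 0.325), EP300 (7.87 ± 0.319) and CREBBP (6.45 ± 0.259) came next and KAT6B (2.75 ± 0.183) was lowest. The replicates of KAT2A overlapped those of KAT8 and KAT7, and the replicates of KAT2B overlapped those of EP300, so the order inside these groups is within the spread. Among all tested genes, CREBBP stood at percentile 35.2 of the DMSO level and KAT8 at percentile 74.9. The summed level of the 9 genes was 142 ± 0.545 FPKM in DMSO, 140 ± 2.53 with 5 µM CBP30 and 128 ± 10.9 with 2 µM CBP30. It was 137 ± 2.34 with 5 µM and 143 ± 1.61 with 2 µM I-CBP112, while single members moved in both directions.

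With 5 µM CBP30, KAT2B and KAT6B rose, KAT2A and KAT8 fell, and the 2 targets of the compound, CREBBP and EP300, were higher in both samples without passing the test when all libraries shared the spread. Of the 9 genes, 2 were called lower and 2 higher, shares of the size seen in all tested genes, of which 25.4% were called lower and 21.2% higher. At 2 µM CBP30 only KAT2B was called, and with I-CBP112 none of the 9 was called at either concentration. The 4 comparisons with DMSO use the same DMSO samples and are not independent of each other.

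CREBBP, the coactivator first found by its binding to phosphorylated CREB, measured 6.27 and 6.63 FPKM in DMSO and 9.10 and 8.67 with 5 µM CBP30. It measured 4.67 and 7.35 with 2 µM CBP30, 7.69 and 6.57 under 2 µM I-CBP112, and 6.24 and 6.68 with 5 µM I-CBP112. The 5 µM CBP30 samples were above every other sample, the lowest value came from replicate 1 of 2 µM CBP30, and the I-CBP112 samples lay around those of DMSO. The mean with 5 µM CBP30 was 138% of the DMSO mean, a log2 difference of 0.41 (SE 0.17, 95% interval 0.02 to 0.80) with an adjusted p of 0.0826. The same difference fitted without replicate 1 of 2 µM CBP30 had an SE of 0.0755 and an adjusted p of 0.00404. With the length trend removed the difference of CREBBP was 0.28 (SE 0.0785, adjusted p = 0.0202), a value that passed the test.

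EP300, the paralog of CREBBP and the acetyltransferase often used to mark active enhancers, measured 7.64 and 8.09 FPKM in DMSO and 10.7 and 10.2 with 5 µM CBP30. It measured 3.92 and 7.66 with 2 µM CBP30, 9.28 and 8.25 under 2 µM I-CBP112, and 7.57 and 7.54 with 5 µM I-CBP112. As for CREBBP, both 5 µM CBP30 samples were above all others and replicate 1 of 2 µM CBP30 was far below its partner. The difference between 5 µM CBP30 and DMSO was 0.37 (SE 0.225, 95% interval -0.16 to 0.90, adjusted p = 0.216), and the mean was 133% of that in DMSO. Its adjusted p was 0.00243 (95% interval 0.22 to 0.52) when replicate 1 of 2 µM CBP30 was left out. With the length trend removed in all 10 samples it was 0.25 (SE 0.141, adjusted p = 0.177), a difference that did not pass.

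At 2 µM CBP30 neither target differed from DMSO beyond the spread. The difference of CREBBP was -0.11 (95% interval -0.51 to 0.28, adjusted p = 0.628) and that of EP300 -0.44 (95% interval -0.97 to 0.09, adjusted p = 0.172). Replicate 2 alone gave 0.17 for CREBBP and -0.03 for EP300, and replicate 1 alone gave -0.39 and -0.85. These intervals overlapped those at 5 µM (0.02 to 0.80 for CREBBP and -0.16 to 0.90 for EP300). The direct comparison of the concentrations is given below.

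The ratio of EP300 to CREBBP FPKM within a sample does not depend on library scaling. It was 1.22 in both DMSO samples and 1.18 in both 5 µM CBP30 samples, 1.21 and 1.26 with 2 µM I-CBP112, and 1.21 and 1.13 with 5 µM I-CBP112. With 2 µM CBP30 it was 0.84 and 1.04, below all 8 other samples, including in replicate 2, which had no length trend. No test was made of this ratio.

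KAT2A, a catalytic subunit of SAGA and ATAC, fell with 5 µM CBP30. It measured 30.0 and 28.3 FPKM in DMSO, 26.3 and 26.5 with 2 µM CBP30, and 21.9 and 20.8 with 5 µM CBP30. With I-CBP112 it measured 30.3 and 29.9 at 2 µM and 26.5 and 27.8 at 5 µM. The 5 µM CBP30 samples were the lowest of the 10, and the 2 µM CBP30 samples lay between them and DMSO. The difference between 5 µM CBP30 and DMSO was -0.43 (SE 0.0518, adjusted p = 0.000568), a level at 73.1% of DMSO, and it was called under all 23 alternatives, with values from -0.47 to -0.36. At 2 µM CBP30 the difference was -0.14 (95% interval -0.26 to -0.02, adjusted p = 0.0813).

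KAT2B, the paralog of KAT2A that replaces it in a share of the same complexes, rose most of the 9 genes. It measured 7.69 and 8.15 FPKM in DMSO, 8.90 and 10.8 with 2 µM CBP30, and 14.95 and 13.97 with 5 µM CBP30. With I-CBP112 it measured 8.16 and 7.79 at 2 µM and 8.21 and 8.50 at 5 µM. All 4 CBP30 samples were above all 6 others, and the groups ordered by concentration without overlap. The difference was 0.79 (SE 0.0883, adjusted p = 0.000416) at 5 µM CBP30, where the mean reached 183% of DMSO, and it was called under all 23 alternatives with values from 0.75 to 0.86. At 2 µM it was 0.28 (SE 0.0883, adjusted p = 0.0487), a call lost in 14 of 23 alternatives, among them a fit of only the groups compared (adjusted p = 0.262) and the leaving out of either DMSO sample (adjusted p = 0.200 and 0.121) or of replicate 2 (adjusted p = 0.0805).

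The ratio of KAT2B to KAT2A FPKM, also not tested, was highest with 5 µM CBP30. It was 0.26 and 0.29 in the DMSO samples, 0.34 and 0.41 with 2 µM CBP30, and 0.68 and 0.67 with 5 µM CBP30. With I-CBP112 it was 0.27 and 0.26 at 2 µM and 0.31 and 0.31 at 5 µM. The 5 µM CBP30 samples were thus apart from the rest, and KAT2A remained the more abundant of the pair in every sample. The KAT2A transcript is shorter than that of KAT2B, and the removal of the length trend left both differences at 5 µM CBP30 called (KAT2A -0.40, adjusted p = 0.000351, and KAT2B 0.76, adjusted p = 7.09e-05).

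Among the MYST enzymes, KAT6A and KAT6B, the paralogous catalytic subunits of the MOZ/MORF complexes, were highest with 5 µM CBP30. KAT6A measured 12.1 and 12.3 FPKM in DMSO, 17.2 and 16.9 with 5 µM CBP30, and 6.58 and 11.6 with 2 µM CBP30. It measured 14.2 and 13.8 with 2 µM I-CBP112 and 12.7 in both samples of 5 µM I-CBP112. Replicate 1 of 2 µM CBP30 was about as far below DMSO as for EP300, and the other 2 µM CBP30 sample was close to DMSO. The difference at 5 µM CBP30 was 0.45 (SE 0.198, 95% interval -0.01 to 0.92, adjusted p = 0.09998), a level at 139.9% of DMSO that did not pass. It was called without replicate 1 of 2 µM CBP30 (SE 0.0314, adjusted p = 7.44e-05) and with the length trend removed (0.33, adjusted p = 0.0426).

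KAT6B measured 2.88 and 2.62 FPKM in DMSO, 4.12 and 3.81 with 5 µM CBP30, and 1.70 and 2.71 with 2 µM CBP30. With I-CBP112 it measured 2.89 and 2.80 at 2 µM and 2.65 and 2.67 at 5 µM. Both 5 µM CBP30 samples were above the 8 others. The difference was 0.41 (SE 0.137, adjusted p = 0.0457), with a mean at 144% of DMSO, and the call was lost in 11 of 22 alternatives, including when either DMSO sample (adjusted p = 0.105 and 0.180) or either 5 µM CBP30 sample (adjusted p = 0.181 and 0.110), or any I-CBP112 sample, was left out. The adjusted p of KAT6B was 0.00137 when replicate 1 of 2 µM CBP30 was left out.

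KAT8, also known as MOF, which acetylates lysine 16 of histone H4, fell with 5 µM CBP30. It measured 29.9 and 30.1 FPKM in DMSO, 29.7 and 26.6 with 2 µM CBP30, and 21.3 and 22.4 with 5 µM CBP30. With I-CBP112 it measured 27.8 and 28.8 at 2 µM and 27.0 in both samples at 5 µM. All treated samples were below both DMSO samples, and the 5 µM CBP30 samples were the lowest. The difference at 5 µM CBP30 was -0.44 (SE 0.0609, adjusted p = 0.00109), a level at 72.8% of DMSO, and it was called under all 23 alternatives with values from -0.48 to -0.30. KAT8 has the shortest transcript of the 9, and with the length trend removed the difference was -0.30 (adjusted p = 0.000897).

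KAT5 (TIP60), which acetylates histones H4 and H2A and the kinase ATM, and KAT7 (HBO1), which acts at replication origins, had the smallest differences of the 9 at 5 µM CBP30. KAT5 measured 17.5 FPKM in both DMSO samples, 15.6 and 16.1 with 5 µM CBP30, and 16.5 and 15.4 with 2 µM CBP30. With I-CBP112 it measured 15.7 and 16.6 at 2 µM and 16.4 and 17.3 at 5 µM. All 8 treated samples were below both DMSO samples, but most treatments overlapped each other, and the difference with 5 µM CBP30 was -0.14 (95% interval -0.27 to -0.00, adjusted p = 0.0840). With the length trend removed it was -0.03 (adjusted p = 0.572). Because of its antisense overlap with RNASEH2C, the level of KAT5 is uncertain. KAT7 measured 28.4 and 28.1 FPKM in DMSO, 27.4 and 25.8 with 5 µM CBP30, 22.0 and 27.2 with 2 µM CBP30, and 27.7 to 28.5 in the 4 I-CBP112 samples. Its difference at 5 µM CBP30 was -0.09 (95% interval -0.30 to 0.12, adjusted p = 0.459). The KAT7 value depends on the length assigned to the gene, since its coding sequence of 1833 bases is a small part of the canonical transcript of 9514 bases. With the trend removed by canonical length the KAT7 difference was -0.21 (adjusted p = 0.00390), and by coding length it was -0.07 (adjusted p = 0.453).

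**Figure D1:**
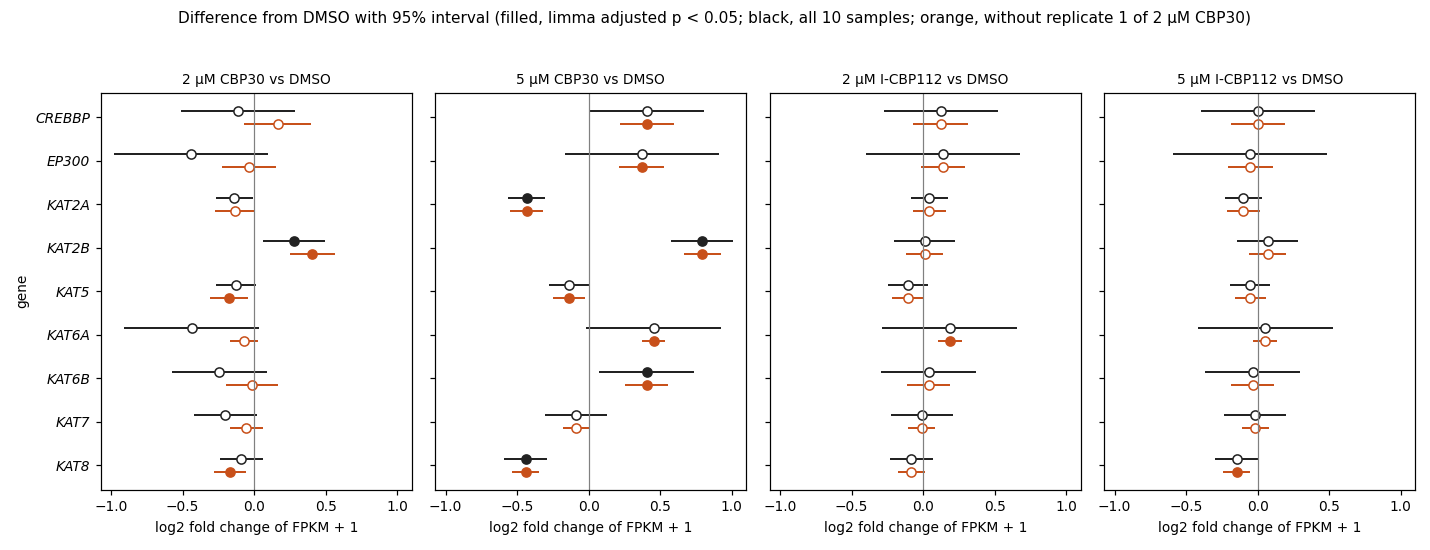
Difference from DMSO on the log2(FPKM + 1) scale (horizontal axis) with its 95% interval for the 9 genes (vertical axis) and 4 treatments, in black with all 10 samples in the fit and in orange without replicate 1 of 2 µM CBP30, filled where the limma adjusted p is under 0.05. With 5 µM CBP30 the intervals of CREBBP, EP300, KAT6A and KAT6B narrow when that sample is left out, and with 5 µM I-CBP112 all 9 values lie between -0.15 and 0.07.

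Without replicate 1 of 2 µM CBP30 in the fit, 3 of the 9 genes were called lower (KAT2A, KAT8 and KAT5) and 5 higher (CREBBP, EP300, KAT2B, KAT6A and KAT6B) with 5 µM CBP30. The share of all tested genes called rose as well, to 33.4% lower and 29.5% higher. With the length trend removed in all 10 samples, 3 genes were called lower (KAT2A, KAT8 and KAT7) and 4 higher (CREBBP, KAT2B, KAT6A and KAT6B), beside 28% lower and 27.3% higher of all genes. KAT2A, KAT2B, KAT6B and KAT8 were called in all 3 of these fits. CREBBP and KAT6A were called in both fits that address the library, and EP300 in the one that leaves it out. Leaving out replicate 2 of 2 µM CBP30 instead had a like effect on the calls, since either removal takes the gap between those 2 samples out of the shared spread. Without any single sample of the other 4 conditions, 1 gene (KAT2B) was called higher and 2 lower.

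At 2 µM CBP30, 0 of the 9 genes were called lower and 1 higher by limma, where 16.3% and 15.9% of all genes were called, and 2 had an unadjusted p under 0.05. Without replicate 1, 2 were called lower, KAT5 (-0.18, adjusted p = 0.0400) and KAT8 (-0.17, adjusted p = 0.0278), and KAT2B was called higher (0.41, adjusted p = 0.00460), against 19.9% lower and 17.2% higher over all genes. Without replicate 2 instead, the difference of EP300 was -0.85 and that of CREBBP -0.39. The remaining replicate is then assumed to vary like the other conditions.

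With 5 µM I-CBP112, 0 of the 9 genes were called in either direction by limma, against 3.28% lower and 3.84% higher over all genes, and 1 (KAT8) had an unadjusted p under 0.05. The differences were 0.00 for CREBBP (95% interval -0.39 to 0.39) and -0.05 for EP300 (95% interval -0.58 to 0.48). KAT8 showed the largest difference, -0.15 (SE 0.0609, adjusted p = 0.216), with both samples below both DMSO samples. It was the single call lower without replicate 1 of 2 µM CBP30 (adjusted p = 0.0314, and again 1 call without replicate 2), when 12.4% of all genes were called lower. With 2 µM I-CBP112, 0 were called (0.735% lower and 0.868% higher over all genes) and 0 had an unadjusted p under 0.05. The largest value there was 0.19 for KAT6A (SE 0.198, adjusted p = 0.776), which was called higher without replicate 1 of 2 µM CBP30 (adjusted p = 0.0238, and again 1 call without replicate 2), beside 4.17% of all genes. With all 10 samples the intervals of EP300 and KAT6A at 5 µM I-CBP112 reached 0.48 and 0.52, and without replicate 1 of 2 µM CBP30 they reached 0.10 and 0.13, below the values of these genes with 5 µM CBP30 (0.37 and 0.45).

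The concentrations were also compared within each compound. From 2 to 5 µM CBP30, 7 of the 9 genes were called, 5 higher and 2 lower, against 38.9% of all genes. The differences were 0.52 for CREBBP (adjusted p = 0.0442), 0.81 for EP300 (adjusted p = 0.0292), 0.51 for KAT2B (adjusted p = 0.00746), 0.89 for KAT6A (adjusted p = 0.0156) and 0.65 for KAT6B (adjusted p = 0.0136). KAT2A was lower by 0.30 (log2 difference -0.30, adjusted p = 0.00783) and KAT8 by 0.35 (log2 difference -0.35, adjusted p = 0.00759). With the length trend removed KAT8 came to -0.09 (adjusted p = 0.141) and CREBBP to 0.17 (adjusted p = 0.133), neither called, while KAT5 (0.17, adjusted p = 0.0248) and KAT7 (-0.22, adjusted p = 0.00861) were. Without replicate 1 of 2 µM CBP30 EP300 came to 0.41 (adjusted p = 0.0108), KAT6A to 0.52 (adjusted p = 0.000891), KAT6B to 0.42 (adjusted p = 0.00840) and CREBBP to 0.24 (adjusted p = 0.0908), and 6 genes were called beside 33.5% of all genes. In a fit of the 4 CBP30 samples alone 0 of the 9 genes were called, beside 0.0469% of all genes. Without replicate 1 or replicate 2 of 5 µM CBP30, fewer of the 9 genes and fewer of all genes were called than with all 10 samples. From 2 to 5 µM I-CBP112 limma called 0 of the 9, beside 0.0626% of all genes, and 1 had an unadjusted p under 0.05 (KAT2A, -0.14, adjusted p = 0.742).

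Both compounds were used at 2 and 5 µM, which allows them to be compared at matched concentration and time. At 5 µM, 4 of the 9 genes differed between CBP30 and I-CBP112, against 31.4% of all genes. KAT2A (-0.33, SE 0.0518, adjusted p = 0.00378) and KAT8 (-0.29, SE 0.0609, adjusted p = 0.0112) were lower with CBP30, and KAT2B (0.72, SE 0.0883, adjusted p = 0.00142) and KAT6B (0.44, SE 0.137, adjusted p = 0.0475) were higher. CREBBP differed by 0.41 (95% interval 0.01 to 0.80, adjusted p = 0.107) and EP300 by 0.42 (95% interval -0.11 to 0.95, adjusted p = 0.193), which did not pass. Without replicate 1 of 2 µM CBP30, 7 genes were called, now with CREBBP (adjusted p = 0.00579), EP300 (adjusted p = 0.00216) and KAT6A (adjusted p = 0.000273), beside 52.2% of all genes, and 7 were called without replicate 2 of that condition. Without replicate 1 of 5 µM CBP30 or without either 5 µM I-CBP112 sample, fewer of the 9 genes were called than with all 10 samples. Fewer of all genes were called in these fits as well.

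At 2 µM, 0 of the 9 genes differed between the compounds by limma, with 4 at an unadjusted p under 0.05, and 15.6% of all genes did. EP300 was lower by -0.58 with CBP30 (95% interval -1.11 to -0.05, adjusted p = 0.115) and KAT6A by -0.62 (95% interval -1.09 to -0.16, adjusted p = 0.0724). Without replicate 1 of 2 µM CBP30, the difference of KAT6A was -0.26 and that of KAT2B 0.40.

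The difference between the compounds in their effect of concentration (5 against 2 µM) was tested as an interaction, and 0 of the 9 genes were called by limma, with 6 at an unadjusted p under 0.05, beside 4.94% of all genes. The interaction was 1.00 for EP300 (95% interval 0.25 to 1.75, adjusted p = 0.0888), 1.021 for KAT6A (95% interval 0.36 to 1.68, adjusted p = 0.0716) and 0.45 for KAT2B (95% interval 0.16 to 0.75, adjusted p = 0.0720). Without replicate 1 of 2 µM CBP30, 5 genes were called, beside 17.7% of all genes, and the values were smaller, 0.59 for EP300 (adjusted p = 0.0162), 0.66 for KAT6A (adjusted p = 0.00285) and 0.33 for KAT2B (adjusted p = 0.0417). The other calls were KAT6B (0.49) and KAT8 (-0.21).

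The proteins that work with these enzymes were taken from lists of 7 kinds. The list of SAGA and ATAC subunits other than KAT2A and KAT2B held 19 genes, all tested, but does not hold every subunit. With 5 µM CBP30 0 of the 19 were lower and 4 higher, with a median difference of 0.09 (25.4% lower, 21.2% higher and a median of -0.01 over all genes). The 4 were ENY2 (36.5 ± 2.19 FPKM in DMSO to 46.2 ± 2.203, SD, n = 2, log2 difference 0.33), a subunit of the deubiquitinase module, MBIP (0.30), an ATAC subunit, the deubiquitinase USP22 (67.6 ± 0.312 to 83.0 ± 1.34, 0.29) and SF3B3 (0.22), which is shared with the splicing factor SF3b. The fall of KAT2A was thus not accompanied by a called fall of any of the 19 listed partners in this fit. WDR5, listed below with the MSL and NSL subunits, also belongs to ATAC and was called lower (-0.39, limma adjusted p = 0.00411). When replicate 1 of 2 µM CBP30 was left out, 3 of the 19 were called lower and 5 higher, beside 33.4% and 29.5% of all genes.

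Of the 17 subunits of NuA4/TIP60, the complex of KAT5, 4 were lower and 3 higher, near the shares over all genes (25.4% and 21.2%). The ATPase RUVBL2 fell from 111 ± 2.04 to 65.1 ± 0.105 FPKM (-0.76, adjusted p = 0.00349) and its partner RUVBL1 from 59.8 ± 1.43 to 37.4 ± 0.601 (-0.66, adjusted p = 0.000755). VPS72, which binds the histone variant H2A.Z, was lower by -0.51 (adjusted p = 0.00851), and the scaffold subunit EPC1 was higher, at 11.6 ± 0.219 against 7.78 ± 0.382 FPKM (0.53, adjusted p = 0.00454). RUVBL1 and RUVBL2 also belong to other complexes. The counts were 7 lower and 4 higher of the 17 when replicate 1 of 2 µM CBP30 was left out (33.4% and 29.5% of all genes).

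Of the 9 subunits of the complexes of KAT6A, KAT6B and KAT7, 3 were lower and 2 higher (25.4% and 21.2% of all genes). The scaffold BRPF3 rose from 10.97 ± 0.0168 to 16.2 ± 0.113 FPKM (0.53, adjusted p = 0.000815) and PHF15 (JADE2) by 0.39 (adjusted p = 0.0199). ING5, a reader of methylated histone H3, fell (-0.38, adjusted p = 0.00150), as did PHF17 (JADE1, -0.31, adjusted p = 0.00436). Of the 11 subunits of MSL and NSL, the complexes of KAT8, 2 were lower and 2 higher, beside the same shares. MSL3 (-0.39, adjusted p = 0.00268) and WDR5 (-0.39, adjusted p = 0.00411), which is shared with histone methyltransferases, fell beside KAT8. KANSL3 rose from 21.4 ± 0.180 to 29.4 ± 0.550 FPKM (0.44, adjusted p = 0.000647) and MSL2 by 0.24 (adjusted p = 0.0255). Leaving out replicate 1 of 2 µM CBP30 gave 4 lower and 3 higher of the 9, and 3 lower and 4 higher of the 11 (33.4% and 29.5% of all genes).

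Of 16 other acetyltransferases, 2 were lower and 3 higher (25.4% and 21.2% of all genes). ELP3, the catalytic subunit of Elongator, fell (-0.40, adjusted p = 0.000828), as did NAA10, the catalytic subunit of the NatA N-terminal acetyltransferase (121 ± 6.89 to 80.8 ± 1.20 FPKM, -0.57, adjusted p = 0.0132). ATF2, a transcription factor for which acetyltransferase activity has been described, rose from 15.7 ± 0.0390 to 25.7 ± 0.821 FPKM (0.68, adjusted p = 0.000388), and ESCO2, which acetylates cohesin, rose by 0.66 (adjusted p = 0.00150). Leaving out that library gave 4 lower and 7 higher of the 16 (33.4% and 29.5% of all genes).

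Of 14 binding partners of CREBBP and EP300, 2 were lower and 4 higher (25.4% and 21.2% of all genes). The CITED proteins, which bind the CH1 domain of both coactivators, moved apart. CITED2 fell from 49.2 ± 2.90 to 28.5 ± 0.794 FPKM (-0.77, adjusted p = 0.000852), CITED1 from 1.81 ± 0.580 to 0.592 ± 0.346 (-0.82, adjusted p = 0.0129), and CITED4 rose from 0.487 ± 0.164 to 2.62 ± 0.182 (1.29, adjusted p = 0.000712). CREM, a factor of the CREB family, rose (0.48, adjusted p = 0.000254). CITED2 and CITED4 were the 2 partners called with 5 µM I-CBP112 as well, at -0.50 (adjusted p = 0.0306) and 0.89 (adjusted p = 0.0224). With 5 µM I-CBP112, 3.28% of all genes were called lower and 3.84% higher. The 14 partners had 4 lower and 5 higher with 5 µM CBP30 when replicate 1 of 2 µM CBP30 was left out (33.4% and 29.5% of all genes).

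Acetyl-CoA, the substrate of all these enzymes, is made for the nucleus by ACLY and ACSS2 and in mitochondria by the pyruvate dehydrogenase complex and ACSS1. Of the 10 genes listed for acetyl-CoA supply, not all of which make it, 9 were tested. With 5 µM CBP30, 5 were lower and 2 higher (25.4% and 21.2% of all genes), with a median of -0.15 against -0.01 over all genes. ACSS1 fell from 2.62 ± 0.165 to 0.594 ± 0.0323 FPKM (-1.18, adjusted p = 2.99e-05), and the pyruvate dehydrogenase subunits DLAT (-0.51, adjusted p = 0.000520) and PDHA1 (-0.44, adjusted p = 0.00138) fell too. ACSS2 rose from 16.8 ± 0.437 to 23.8 ± 0.111 FPKM (0.48, adjusted p = 0.000383). With 5 µM I-CBP112, ACSS1 (-0.47, adjusted p = 0.0109) and DLAT (-0.29, adjusted p = 0.0337) were called lower and ACSS2 (0.25, adjusted p = 0.0355) higher. The shares over all genes there were 3.28% lower and 3.84% higher. Leaving out replicate 1 of 2 µM CBP30 gave 6 lower and 2 higher of the 9 with 5 µM CBP30 (33.4% and 29.5% of all genes).

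At 5 µM I-CBP112 none of the subunits of the SAGA/ATAC, NuA4/TIP60, MOZ/MORF/HBO1 and MSL/NSL lists was called in the fit of all 10 samples (3.28% lower and 3.84% higher over all genes), and 1 of the 16 other acetyltransferases was (ELP3, -0.23, adjusted p = 0.0440). The spread in that fit includes the gap between the 2 samples of 2 µM CBP30. With the length trend removed, 1 was lower and 1 higher of 17 for NuA4/TIP60, 0 and 2 of 9 for MOZ/MORF/HBO1, and 1 and 0 of 11 for MSL/NSL. The counts were 0 and 0 of 19 for SAGA/ATAC and 1 and 1 of the 16 other acetyltransferases, beside 922 lower and 931 higher of 12135 genes. Without that removal, no gene of the 7 lists was called at 2 µM I-CBP112. At 2 µM CBP30, where 16.3% of all genes were called lower and 15.9% higher, the counts were 1 lower and 2 higher of the 19 SAGA/ATAC subunits, 3 and 2 of 17 for NuA4/TIP60, 3 and 1 of 9 for MOZ/MORF/HBO1, and 1 and 1 of 11 for MSL/NSL. They were 3 and 1 of the 16 other acetyltransferases, 2 and 2 of the 14 partners, and 4 and 1 of the 9 acetyl-CoA genes.

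Across the 10 samples, the log2 values of CREBBP and EP300 had a Pearson r of 0.93, EP300 and KAT6A 0.99, and CREBBP and KAT6B 0.94, all long genes that were lowest in replicate 1 of 2 µM CBP30. KAT2A and KAT2B had an r of -0.93 and KAT2A and KAT8 an r of 0.88. These correlations run over 5 conditions of 2 libraries each and are descriptions only. In a search of 8997 genes averaging 5 FPKM or more, the closest in pattern to CREBBP were HPS5 (r = 0.993), the transcription factor RFX7 (0.991), GOLGB1 (0.984), which encodes the Golgi protein giantin, GSTCD (0.981) and BPTF (0.980), a chromatin remodeler subunit with a bromodomain. Among the closest to EP300 were the splicing factor PRPF8 (r = 0.994), TNRC6A (0.993) of the miRNA silencing complex, SETD5 (0.991) and the long noncoding RNA TUG1 (0.991). Their transcripts are 4304 to 11186 bases long, and each had a lower value in replicate 1 of 2 µM CBP30 than in the mean of DMSO, as in BPTF, with 6.44 FPKM against 9.89 in DMSO and 15.7 with 5 µM CBP30, and in PRPF8, with 35.0 FPKM against 57.8 in DMSO and 68.4 with 5 µM CBP30.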

How the data were processed

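The authors extracted RNA, made stranded TruSeq libraries from polyadenylated RNA and sequenced single reads of 50 bases. Alignment was to hg19 (GRCh37) through the Nextpresso pipeline, and the submitters' processing notes name FastQC, TopHat2 2.0.10, Bowtie 1.0.0, SAMtools 0.1.19, Cufflinks 2.2.1 and Cuffnorm. The gene annotation and the use of strand in counting are not given in the sources used here. The deposited table holds 1 FPKM value per gene and sample, without pooling of replicates, and every column was matched to its sample by name.

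The 12788 of 23284 genes averaging 0.5 FPKM or more entered limma 3.58.1 (R 4.3.3) on the log2(FPKM + 1) scale, in 1 linear model of all 5 groups with 5 residual degrees of freedom and eBayes with a trend. P-values were adjusted by Benjamini-Hochberg over all genes tested and called under 0.05, and intervals are 95% intervals of the moderated test. Transcript lengths and positions came from GENCODE for GRCh37, matched by symbol or older symbol for 21416 genes. The length trend was removed with a lowess curve (span 0.4) per sample over 12135 genes. Promoter windows came from RefSeq (GRCh38.p14) and were searched in Python 3.11.15 with pandas 2.3.3, and figures were drawn with matplotlib 3.10.9.

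The genes named are all 9 members, in each list up to 4 called genes with the largest difference at 5 µM CBP30, and the 5 genes closest in pattern to CREBBP and to EP300, of which 1 is not reported here. BPTF and PRPF8 were given values, and RNASEH2C and markers were named, outside this rule after their values were seen. Members and lists were chosen with earlier results of these data known. Same-numbered samples did not deviate together (correlations of deviations between -0.07 and 0.09 over 10 pairs of groups), so replicate numbers were not used to pair samples. Alternatives were 10 planned kinds, the leaving out of each sample among them, and 3 length settings chosen after seeing the data. Protein and guide sequences were not used here.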

Additional observations from a re-analysis of the deposited data

How the results depend on the processing

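In the comparisons with DMSO, values that changed sign under an alternative were not called and stayed inside their 95% interval, and were not counted as reversals. Between CBP30 concentrations 2 values that were not called turned and were called with the length trend removed, KAT5 (-0.01 to 0.17) and KAT7 (0.11 to -0.22), and KAT7 turned in the interaction (0.12 to -0.25, adjusted p = 0.0478). The calls over all genes moved with the setting as well, and the member counts below are to be read beside them. With 5 µM CBP30, 2717 of 12788 genes were called higher in the main fit and 3632 in a fit of only the groups compared. With the length trend removed 3308 of 12135 were, and without a filter 3026 of 19308. At 2 µM CBP30, 2079 of 12788 were called lower in the main fit and 2506 of 12135 with the length trend removed. Between compounds at 5 µM, 2284 of 12788 were lower and 1736 higher, and 3531 and 3025 in a fit of only the groups compared. At 2 µM, 1081 were lower and 912 higher, and 1575 and 1435 of 12135 with the length trend removed. The interaction had 424 negative and 208 positive calls, and 558 and 440 with the length trend removed. Calls over all genes also moved when single samples were left out. The number of genes called higher with 5 µM CBP30 (2) was 1 without a filter, with a pseudocount of 0.1, with a filter at 5 FPKM or under the replicate block, 5 in a fit of only the groups compared, 4 after removal of the length trend (also under a replicate block, or by coding length), 5 with the length trend removed and without replicate 1 of 2 µM CBP30, and 1 to 5 when single samples were left out. CREBBP, at 0.41, was called in a fit of only the groups compared (0.41, adjusted p = 0.00659) and with the length trend removed (0.28, as under a replicate block, by coding length, or without replicate 1 of 2 µM CBP30), and ranged from 0.37 to 0.44 when single samples were left out. EP300, at 0.37, was called in a fit of only the groups compared (0.37, adjusted p = 0.00797) and with the length trend removed without replicate 1 of 2 µM CBP30 (0.25), with 0.33 to 0.41 when single samples were left out.

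At 2 µM CBP30, 3 genes were called lower after removal of the length trend, 2 under the replicate block as well or without replicate 1, 1 by median transcript length, and 0 to 5 when single samples were left out, where CREBBP ranged from -0.39 to 0.17 and EP300 from -0.85 to -0.034. The 1 gene called higher (KAT2B) became 0 with no filter, eBayes without the trend, only the groups compared, the replicate block or median transcript length, and 0 to 1 when single samples were left out. With 5 µM I-CBP112, 1 gene was lower in a fit of only the groups compared and with the length trend removed without replicate 1 of 2 µM CBP30, and 0 to 1 when single samples were left out. With 2 µM I-CBP112, 1 gene was higher with the length trend removed without that replicate, and 0 to 1 when single samples were left out. Between CBP30 concentrations, 0 genes were called in a fit of only the groups compared and 1 to 8 when single samples were left out. This count fell without either replicate of 5 µM CBP30, as did the count over all genes. Between compounds at 5 µM, 7 were called with only the groups compared, 8 with the length trend removed without replicate 1 of 2 µM CBP30, and 2 to 7 when single samples were left out. At 2 µM, 1 was called with median centring, quantile normalization or median transcript length, 4 after removal of the length trend (also under a replicate block), 2 by coding length or without replicate 1 of 2 µM CBP30, and 0 to 6 when single samples were left out. In the interaction, 1 gene was called with the length trend removed, 2 by coding length or without that replicate, and 0 to 7 when single samples were left out.

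The causes were not tested. By construction, leaving out a 2 µM CBP30 sample takes the gap between that pair out of the shared spread, as does a fit of only the groups compared where 2 µM CBP30 is not one of them, while such a fit with 2 µM CBP30 gives that gap more weight. Of the results that each answer a comparison, 399 values stayed called or not called as before, or kept a count within 1.5 times. Another 70 counts moved further, and 13 differences became called. Values that were not called and changed sign inside their interval were counted among those that stayed, so the 399 did not all keep their direction. The replicate numbers share no more than a number, and without a length correction the replicate block ended 4 calls, KAT6B with 5 µM CBP30 (adjusted p = 0.0634) and against 5 µM I-CBP112 (adjusted p = 0.0665), KAT2B with 2 µM CBP30 (adjusted p = 0.0634) and CREBBP between CBP30 concentrations (adjusted p = 0.0560), and changed no other. FPKM values hold no counts, so the precision rests on 2 samples per condition.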
